A study of Homo sapiens with 9 samples.

Results

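Collagen chains are the polypeptides that wind in threes into the triple helices of the extracellular matrix. Transcript clusters (the units of the array, each a set of probes for 1 transcribed locus) were taken as collagen chains when their single gene symbol read COL, a number, A and a number, and the cluster with the highest mean over the 9 arrays stood for each gene. This gave 41 chain genes of the 22465 genes with a single symbol. COL3A1 and COL26A1 are not among them because their clusters carry 2 symbols, and COL17A1 was not analysed here.

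The cells were MDA-MB-231, a triple negative breast cancer line, carrying the lentiviral vector pLVX shRNA1 and selected with puromycin. The LUC control culture expressed a short hairpin RNA against firefly luciferase, the ELOVL5 culture one against ELOVL5, an elongase of polyunsaturated fatty acids, and the IGFBP6 culture one against IGFBP6, an extracellular binding protein of insulin-like growth factors. Each group was 1 stable culture with 1 hairpin, for each knockdown the one of 2 made in which the target fell more, and was represented by 3 independently obtained RNA samples, 1 array each. The p-values therefore rest on the spread between RNA samples within a culture, pooled over the 3 cultures. An effect of a hairpin and a trait of its culture cannot be told apart. The extraction note in the labels speaks of tumour tissue, against the other labels and the study's methods, which give this cell line. The values were log2 intensities of the Human Transcriptome Array 2.0.

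Collagen chains are hydroxylated and glycosylated in the endoplasmic reticulum, folded there into trimers, trimmed outside the cell and cross-linked into fibrils or networks. Fibrillar types include I, II, III, V and XI, and type I is the main collagen of stroma. Type IV forms the sheet of basement membranes, fibril-associated types such as XII sit on the surface of fibrils, and transmembrane types such as XIII stay anchored in the plasma membrane. In a breast tumour most fibrillar collagen comes from fibroblasts, and carcinoma cells make a narrower set of chains.

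Within a group the arrays correlated at r of 0.990 to 0.998 over all clusters. ELOVL5 was lower by 1.66 on the log2 scale (SE 0.11) in the ELOVL5 culture, with an adjusted p (limma, Benjamini-Hochberg over 67528 clusters) of 8.71e-05. IGFBP6 was lower by 0.62 (SE 0.10, adjusted p = 0.00183) in the IGFBP6 culture. It gave 6.13, 6.21 and 6.03 in LUC and 5.65, 5.30 and 5.56 in the IGFBP6 culture. Levels under log2 6 cannot be told apart from background here, so the size of this fall compares signals only. All 7 markers of the line (VIM, CD44, EGFR, KRT18, KRT8, AXL, CAV1) lay between 12.01 and 15.53 on every array, and ESR1 and PGR, receptors that such cells lack, were at 4.79 or less. All 8 fibroblast markers (DCN, LUM, PDGFRA, PDGFRB, THY1, FAP, POSTN, DPT) were at 4.91 or less on every array, with a summed level of 7.37 to 7.48 in LUC, 7.34 to 7.36 in ELOVL5 and 7.27 to 7.42 in IGFBP6. Of 5 endothelial markers 4 lay under 6 in each group, the exception being KDR, and all 4 leukocyte markers measured lay under 6. After the knockdown of IGFBP6 KDR was higher (6.58 to 6.75, against at most 6.03 in LUC), PTPRC was lower (4.46 to 4.58, against 5.10 to 5.46), EGFR was higher and CD44, KRT8, AXL and CAV1 were lower, all called by the rule given next. The part of these shifts in the collagen results was not tested.

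A gene was called changed when its adjusted p was under 0.05 and the change was at least 1.5 times. After the knockdown of IGFBP6, COL13A1 rose and COL5A1 fell among the 41 chains, and 39 were not called. Values under log2 6 are named dim here. No detection values were used, so a dim level cannot be told apart from background, and a fold against one compares signals only. Over all genes the same rule called 7.82% higher and 8.49% lower. Among the 10721 dim genes 121 were higher and 69 lower, and among the 35 dim chains 0 and 1. After the knockdown of ELOVL5, COL12A1 fell, no chain was called higher by limma and 1 was higher at an unadjusted p under 0.05. Over all genes 0.672% were called higher and 0.690% lower there. Of the 10721 dim genes 6 were higher and 9 lower, and of the 35 dim chains 0 and 0. Between the 2 knockdowns COL12A1 was called higher and COL5A1 lower in the IGFBP6 culture, against 6.50% and 6.64% of all genes. Of the 10721 dim genes 92 were higher and 45 lower, and of the 35 dim chains 0 and 1. The median difference of the 41 chains was -0.02 for IGFBP6 against LUC, -0.01 for ELOVL5 against LUC and 0.01 between the knockdowns, and that of all genes was -0.01, -0.02 and 0.02. Both comparisons with LUC share the 3 control arrays. As these are bulk samples, a change in the share of cells with a transcript and a change in its level per cell cannot be told apart.

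**Figure D1:**
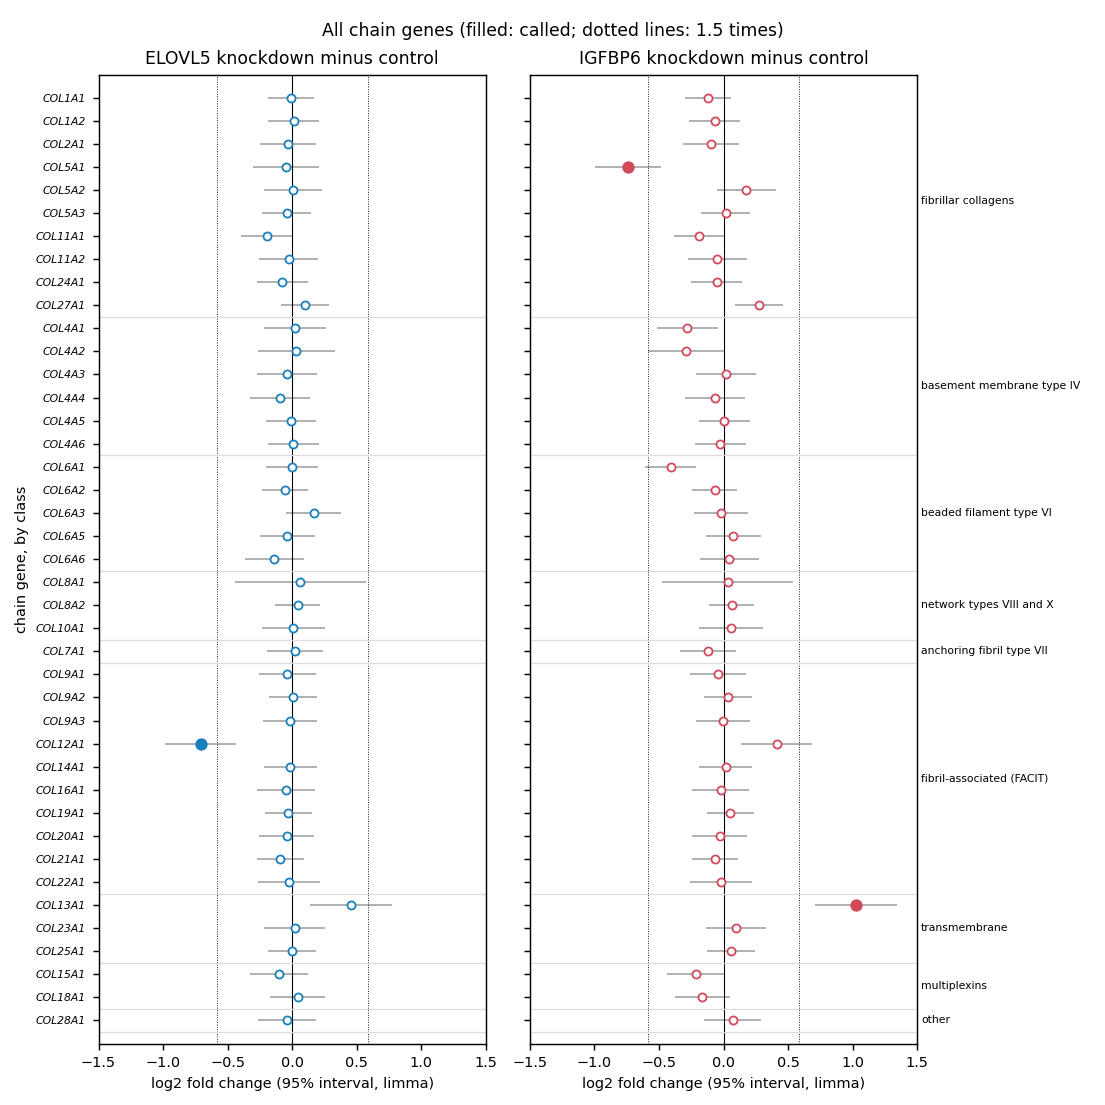
Difference of each of the 41 chain genes from the LUC control (x axis, log2 fold change, bars the 95% interval of limma) after the knockdown of ELOVL5 (left) and of IGFBP6 (right), ordered by class on the y axis. Filled points are called, namely COL12A1 at -0.71 on the left and COL5A1 at -0.74 and COL13A1 at 1.03 on the right, the dotted lines mark 1.5 times, and the open points lie between these lines.

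COL12A1 (transcript cluster TC06001879.hg.1) encodes the single chain of type XII, a fibril-associated collagen that bridges fibrils and other matrix proteins. Its log2 intensity was 10.98, 11.10 and 11.32 in LUC, 10.43, 10.38 and 10.47 in ELOVL5, and 11.31, 11.62 and 11.71 in IGFBP6. The ELOVL5 arrays were all below the control arrays, while the lowest IGFBP6 array overlapped the highest control array. COL12A1 was 1.63 times lower after the knockdown of ELOVL5 (log2 -0.71, SE 0.12, 95% interval -0.98 to -0.43, adjusted p = 0.026). It was 1.33 times higher after the knockdown of IGFBP6 (log2 0.41, adjusted p = 0.0442), which is below 1.5 times and not called. The direct comparison of the 2 knockdowns gave a difference of 1.12 (2.17 times, adjusted p = 1.86e-04), called under all 18 alternative settings. The call against LUC was less stable. Without any 1 of the ELOVL5 arrays, LUC array 2 or LUC array 3 its adjusted p was 0.0771 to 0.114, at log2 differences of -0.73 to -0.61. With each gene's own spread it was 0.135 and with median centring 0.0799.

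COL13A1 (TC10000424.hg.1) encodes type XIII, a transmembrane collagen found at cell adhesions and neuromuscular junctions. Its log2 intensity was 7.86, 8.13 and 7.79 in LUC, 8.11, 8.42 and 8.61 in ELOVL5, and 8.88, 9.11 and 8.87 in IGFBP6. All IGFBP6 arrays were above all others, and the ELOVL5 arrays lay between, with 1 of them inside the control range. COL13A1 was 2.04 times higher after the knockdown of IGFBP6 (log2 1.03, SE 0.14, 95% interval 0.71 to 1.35, adjusted p = 5.64e-04), and this held under all 18 alternatives. For ELOVL5 against LUC the difference was 0.45 (95% interval 0.14 to 0.77) and did not pass (adjusted p = 0.222). Between the knockdowns it was 0.57 (adjusted p = 0.0216), just under 1.5 times. That last difference was 0.61 to 0.69, and called, without ELOVL5 array 3, IGFBP6 array 1 or IGFBP6 array 3. The other 2 transmembrane chains measured, COL23A1 and COL25A1, differed from LUC by at most 0.10 in either knockdown and were under 6 on every array.

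COL5A1 (TC09000787.hg.1) encodes the main chain of type V, which starts the assembly of type I fibrils. Its log2 intensity was 5.81, 5.94 and 5.73 in LUC, 5.69, 5.85 and 5.79 in ELOVL5, and 5.29, 4.88 and 5.08 in IGFBP6. The 3 IGFBP6 arrays were below the other 6, and the ELOVL5 arrays overlapped the controls. The signal was 1.67 times lower after the knockdown of IGFBP6 (log2 -0.74, SE 0.11, adjusted p = 0.0011). Against ELOVL5 the difference was -0.69 (adjusted p = 0.00228), and ELOVL5 against LUC gave -0.05. COL5A1 never reached log2 6 and the median of all values was 5.02, so its cluster was dropped, and no chain was called lower, when dim clusters were left out. The other type V chains, COL5A2 and COL5A3, were dim in all groups, and differed from LUC by 0.18 and 0.02 in IGFBP6, neither called.

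**Figure D2:**
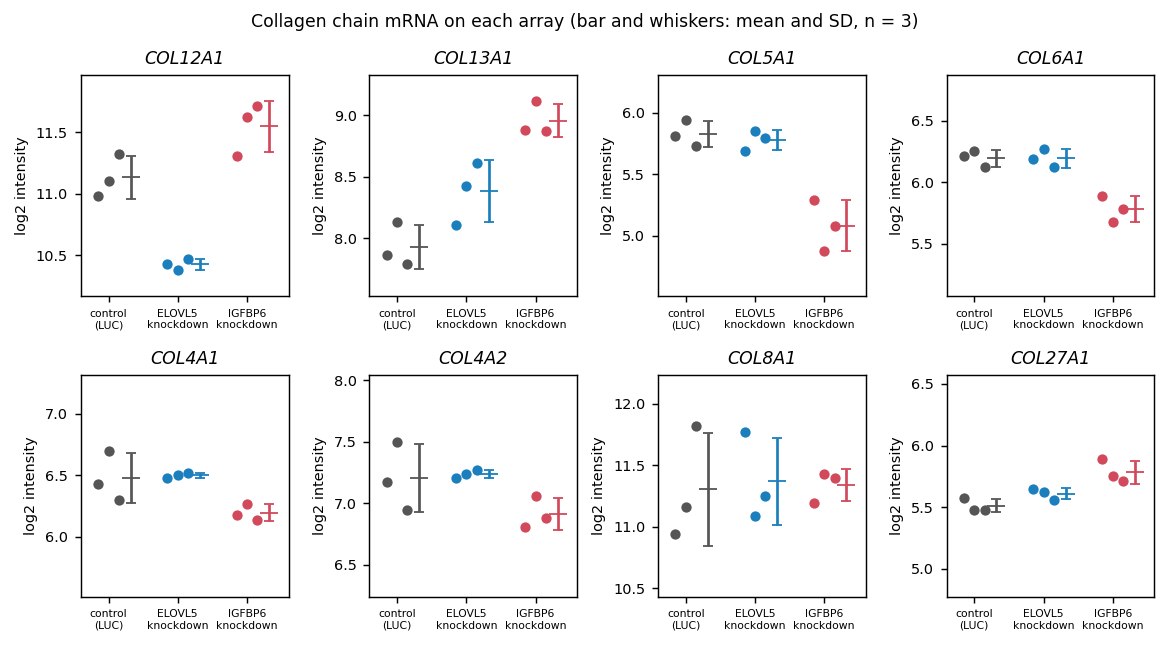
Log2 intensity (y axis, 1.8 units high in each panel) of 8 chains on the 3 arrays of each culture (x axis), 1 point an array, with the mean and SD as a bar with whiskers. The ELOVL5 points of COL12A1 are the lowest (10.38 to 10.47), the IGFBP6 points are the highest for COL13A1 (8.87 to 9.11) and the lowest for COL5A1 (4.88 to 5.29), and COL8A1 overlaps in all 3 cultures.

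COL8A1, a short chain of type VIII that builds hexagonal networks under endothelium, was not called in any comparison. Its log2 intensity was 10.94, 11.16 and 11.82 in LUC, 11.77, 11.09 and 11.25 in ELOVL5, and 11.19, 11.43 and 11.40 in IGFBP6. All groups overlapped, and the control arrays spread most (SD 0.46). The difference from LUC was 0.06 for ELOVL5 (95% interval -0.45 to 0.57) and 0.03 for IGFBP6 (-0.48 to 0.54), wide intervals that leave room for a change in either direction. The second type VIII chain, COL8A2, and COL10A1 were under 6 on every array.

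COL6A1 encodes 1 of the 3 chains of classical type VI, a beaded filament around cells, and needs COL6A2 and COL6A3 to form its trimer. Its log2 intensity was 6.21, 6.25 and 6.12 in LUC, 6.19, 6.27 and 6.12 in ELOVL5, and 5.89, 5.68 and 5.78 in IGFBP6. The IGFBP6 arrays were below all others and the ELOVL5 arrays matched the control. All 3 IGFBP6 arrays were dim, a level not shown to be above background. The difference after the knockdown of IGFBP6 was -0.41 (SE 0.09, 95% interval -0.61 to -0.21, adjusted p = 0.00922), or 1.33 times, which does not reach 1.5 times. COL6A2, its neighbour in the genome, had group means of 5.45, 5.40 and 5.38 (LUC, ELOVL5, IGFBP6), and COL6A3 of 4.98, 5.14 and 4.96. Neither differed from LUC at an unadjusted p under 0.05. COL6A5 and COL6A6 were also dim, and their differences of 0.08 and 0.04 from LUC turned to -0.013 and -0.062 without IGFBP6 array 1.

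COL4A1 and COL4A2 together make the common type IV trimer of basement membranes. COL4A1 gave 6.43, 6.70 and 6.30 in LUC, 6.48, 6.50 and 6.52 in ELOVL5, and 6.18, 6.27 and 6.14 in IGFBP6. COL4A2 gave 7.17, 7.50 and 6.95 in LUC, 7.21, 7.24 and 7.27 in ELOVL5, and 6.81, 7.06 and 6.88 in IGFBP6. The arrays stood in the same order for both genes within LUC and within ELOVL5, and array 2 was the highest for both within IGFBP6. For ELOVL5 the differences from LUC were 0.02 and 0.03. For IGFBP6 they were -0.28 (95% interval -0.52 to -0.04, adjusted p = 0.114) and -0.29 (-0.59 to 0.01, adjusted p = 0.197), and neither passed the test. These values turned on single control arrays. They were -0.17 and -0.14 without LUC array 2, and -0.37 (adjusted p = 0.0491) and -0.42 (adjusted p = 0.0536) without LUC array 3, all below 1.5 times. The remaining type IV chains, COL4A3 to COL4A6, which make the trimers of kidney, lung and smooth muscle basement membranes, were under 6 on every array and differed from LUC by at most 0.09 in size.

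The promoter windows of the 3 called chains are shown because no other chain was called, and that of COL4A2 because most of it is shared with COL4A1. Windows are RefSeq sequences on GRCh38.p14, from 250 bases before to 50 bases after the annotated start, and 30 of the 41 chains matched one. Capitals mark matches on either strand to the letters GGGCGG of the GC box, to TATAAA, the core promoter element of many tissue-specific genes, to CCAAT, an element bound by nuclear factor Y, or to TGANTCA, the site of the AP-1 factors.
COL12A1 (chr6:75206004-75206303, minus strand): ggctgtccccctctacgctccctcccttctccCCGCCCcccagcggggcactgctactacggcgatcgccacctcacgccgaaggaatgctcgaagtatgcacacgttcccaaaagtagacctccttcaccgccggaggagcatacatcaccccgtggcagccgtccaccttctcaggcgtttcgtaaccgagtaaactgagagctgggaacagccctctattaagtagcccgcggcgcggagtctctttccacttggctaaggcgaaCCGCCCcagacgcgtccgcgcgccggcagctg
COL13A1 (chr10:69801656-69801955, plus strand): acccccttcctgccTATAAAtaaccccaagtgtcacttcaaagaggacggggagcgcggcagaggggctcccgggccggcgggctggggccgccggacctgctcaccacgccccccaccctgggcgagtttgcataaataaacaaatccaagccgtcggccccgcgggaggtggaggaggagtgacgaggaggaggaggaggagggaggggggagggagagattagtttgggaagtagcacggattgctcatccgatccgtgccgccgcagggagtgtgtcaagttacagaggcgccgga
COL5A1 (chr9:134641553-134641852, plus strand): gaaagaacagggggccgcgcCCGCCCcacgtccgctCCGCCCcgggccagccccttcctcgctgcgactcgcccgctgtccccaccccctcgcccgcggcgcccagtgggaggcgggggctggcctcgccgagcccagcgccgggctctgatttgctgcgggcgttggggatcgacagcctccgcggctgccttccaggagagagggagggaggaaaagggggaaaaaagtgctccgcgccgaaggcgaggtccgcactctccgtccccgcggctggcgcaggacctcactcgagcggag
COL4A2 (chr13:110307034-110307333, plus strand): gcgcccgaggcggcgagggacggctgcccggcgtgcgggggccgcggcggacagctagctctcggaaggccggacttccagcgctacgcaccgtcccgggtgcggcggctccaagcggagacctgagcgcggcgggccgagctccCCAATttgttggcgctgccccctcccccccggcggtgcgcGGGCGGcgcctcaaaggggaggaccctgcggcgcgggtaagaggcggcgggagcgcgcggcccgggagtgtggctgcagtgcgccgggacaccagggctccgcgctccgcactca

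COL12A1 held GC boxes at -218 and 18 from the start, COL13A1 a single TATAAA at -236, and COL5A1 GC boxes at -230 and -214. COL4A1 and COL4A2 are transcribed away from each other from starts 127 bases apart, so that 226 bases of their windows are the same DNA. In the COL4A2 window the CCAAT match lay at -105 and the GC box at -65. In the COL4A1 window, which is not printed, CCAAT lay at -26 and GC boxes at -249 and -67. Among the 30 chain promoters a GC box was found in 60% against 44.6% of 27305 promoters, CCAAT in 30% against 35.7%, TATAAA in 13.3% (COL13A1, COL6A2, COL6A6 and COL7A1) against 12% and TGANTCA in none against 7.76%. These are letter matches and not evidence of a bound factor, and no motif was found in all 3 called chains.

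The remaining chains were dim. On all 9 arrays 35 of the 41 chains stayed under log2 6, with a median of 4.86 in LUC, while 10721 of the 22465 genes did so. The 6 chains with an array at or above 6 were COL12A1, COL13A1, COL8A1, COL4A1, COL4A2 and COL6A1. Type I, the main collagen of stroma, was among the dim ones. COL1A1 had group means of 5.12, 5.11 and 5.00 (LUC, ELOVL5, IGFBP6) and COL1A2 of 4.92, 4.93 and 4.85. Apart from COL5A1, the dim chains differed from LUC by -0.22 to 0.27 after the knockdown of IGFBP6 and by -0.20 to 0.17 after that of ELOVL5.

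The dim chains shifted together between arrays of 1 group. IGFBP6 array 1 was the highest of its group for 34 of the 35, and IGFBP6 array 2 the lowest for 32. The medians over the 35 were 4.95, 4.70 and 4.85 in IGFBP6, 4.90, 4.88 and 4.80 in LUC, and 4.81, 4.82 and 4.82 in ELOVL5. Over all 10721 dim genes the same arrays gave 4.65, 4.47 and 4.56 in IGFBP6, 4.59, 4.55 and 4.53 in LUC, and 4.54, 4.53 and 4.52 in ELOVL5. COL5A1 also had its highest IGFBP6 value on array 1 and its lowest on array 2. Its values on these arrays (5.29, 4.88 and 5.08 in order) were all below its lowest LUC value (5.73). The dim chains' median on array 1 (4.95) was above all 3 LUC medians. The COL5A1 call held without array 2. The part of the shift between arrays in the COL5A1 difference was not tested.

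**Figure D3:**
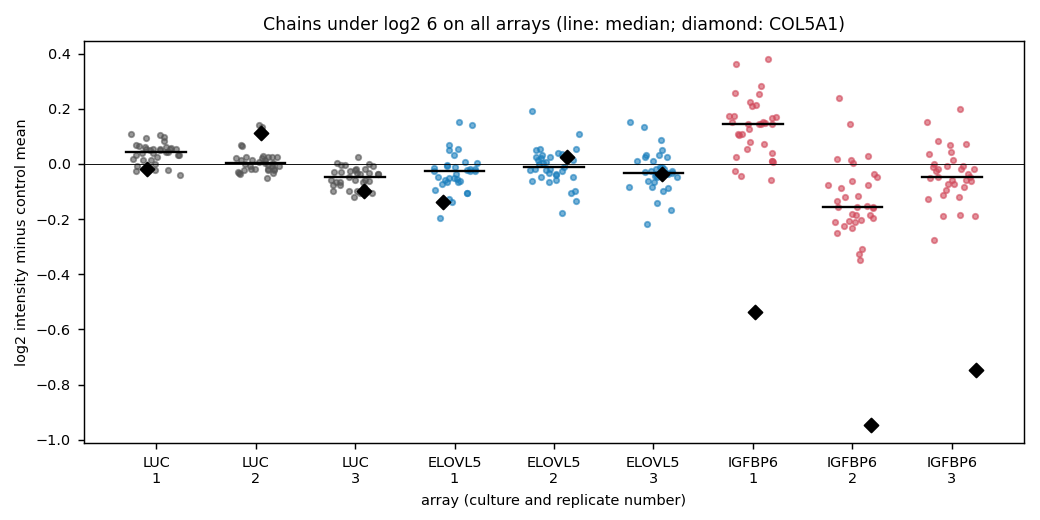
Deviation of each of the 35 dim chains from its LUC mean (y axis, log2 intensity) on each array (x axis, culture and replicate number), with the median as a line and COL5A1 as a diamond. IGFBP6 array 1 sits above and IGFBP6 array 2 below the zero line as a whole, and the COL5A1 diamonds lie under the cloud on all 3 IGFBP6 arrays.

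COL27A1, a fibrillar chain of cartilage outside the rule for named genes and chosen after its values were seen, gave 5.57, 5.48 and 5.48 in LUC, 5.65, 5.62 and 5.56 in ELOVL5, and 5.89, 5.75 and 5.71 in IGFBP6. The IGFBP6 arrays were above all others by a small step. The difference from LUC was 0.27 (adjusted p = 0.0498), below 1.5 times.

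The genes that modify, fold, trim, cross-link, degrade and bind collagen were listed by role. Beside the counts of called genes below, 7.82% of all genes were higher and 8.49% lower after the knockdown of IGFBP6. After that of ELOVL5 these shares were 0.672% and 0.690%. The lists differ in level. A group mean reached 6 for 12 of 14 modifying genes, 1 of 14 matrix proteins and 11335 of the 22465 genes. An excess of called genes in a list was not tested. Of 14 enzymes and partners that modify the chains, 2 rose (P3H4, CRTAP) and 4 fell (COLGALT1, P3H2, P4HA2, PLOD1) after the knockdown of IGFBP6, with a median of -0.23. None was called after that of ELOVL5 by limma, with 3 at an unadjusted p under 0.05 and a median of 0.00. COLGALT1, which adds galactose to hydroxylysine, gave 12.36, 12.40 and 12.46 in LUC, 12.56, 12.35 and 12.32 in ELOVL5, and 9.98, 10.70 and 10.21 in IGFBP6. The IGFBP6 arrays stood well below the rest, a decrease of 4.32 times (log2 -2.11, SE 0.16, adjusted p = 1.01e-05). P3H2, a prolyl 3-hydroxylase active on type IV, fell by 2.85 times (log2 -1.51, SE 0.12, adjusted p = 1.36e-05), from 11.13 to 11.46 in LUC to 9.65 to 9.94 in IGFBP6. P4HA2, a catalytic subunit of prolyl 4-hydroxylase, fell by 2.29 times (log2 -1.19, SE 0.14, adjusted p = 1.48e-04). P3H4, a non-enzymatic partner of lysyl hydroxylation, rose by 1.74 times (log2 0.80, SE 0.08, adjusted p = 6.21e-05).

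In folding and secretion, with 10 genes, FKBP10 rose and FKBP14 and CREB3L1 fell after the knockdown of IGFBP6 (median 0.03), and FKBP10 alone was called after that of ELOVL5 (median 0.21). FKBP10, a prolyl isomerase and chaperone of procollagen, gave 5.74, 5.70 and 5.68 in LUC, 7.48, 7.48 and 7.40 in ELOVL5, and 10.20, 10.74 and 10.47 in IGFBP6. The 3 cultures did not overlap, and the order LUC, ELOVL5, IGFBP6 held on every array. The increase was 3.36 times for ELOVL5 (log2 1.75, SE 0.12, adjusted p = 1.02e-04) and 27.2 times for IGFBP6 (log2 4.76, adjusted p = 1.05e-08), and 8.09 times between the knockdowns. The LUC arrays were dim, so both folds against LUC are set against a level not shown to be above background. FKBP14, a related isomerase, was lower by 0.79 in IGFBP6 (adjusted p = 0.00999, but 0.0588 with its own spread). CREB3L1, a transcription factor that drives type I collagen genes in bone, was lower by 0.63 (adjusted p = 0.00112). SEC24D, part of the coat of the vesicles that export procollagen, did not pass against LUC and was lower by 0.80 in IGFBP6 than in ELOVL5 (adjusted p = 0.00735).

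In propeptide processing, with 9 genes, PCOLCE2 and ADAMTS3 rose and TLL1, BMP1 and FURIN fell after the knockdown of IGFBP6 (median 0.01), and TLL1 was called after that of ELOVL5 (median -0.02). TLL1, a protease related to BMP1, gave 6.83, 7.19 and 7.35 in LUC, 5.57, 5.74 and 5.86 in ELOVL5, and 4.74, 4.58 and 4.52 in IGFBP6. The groups did not overlap. It was 2.64 times lower in ELOVL5 (log2 -1.40, SE 0.14, adjusted p = 9.29e-04) and 5.70 times lower in IGFBP6 (log2 -2.51, adjusted p = 1.20e-06). Both knockdown cultures were dim, and the IGFBP6 arrays lay near the median of all dim genes (4.65, 4.47 and 4.56), so these folds are set against a level not shown to be above background. BMP1, which removes the C-propeptide of fibrillar chains, was lower by 1.10 in IGFBP6 (adjusted p = 3.98e-05), and its enhancer PCOLCE2 was higher by 1.07 (adjusted p = 2.29e-05). BMP1 was dim on 2 of the 3 IGFBP6 arrays, PCOLCE2 on all LUC arrays, and ADAMTS3 on all 9 arrays (at most 5.75). FURIN, a convertase that also sheds the outer part of COL13A1, was lower by 0.85 in IGFBP6 (adjusted p = 0.00174).

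Of the 5 lysyl oxidases, which start the cross-links, 1 rose and 2 fell after the knockdown of IGFBP6 (median -0.16), and none was called by limma after that of ELOVL5 (2 at an unadjusted p under 0.05, median 0.14). LOX gave 11.19, 10.99 and 11.05 in LUC, 11.27, 11.20 and 11.19 in ELOVL5, and 12.74, 12.57 and 12.65 in IGFBP6. It was 2.98 times higher in IGFBP6 (log2 1.58, SE 0.09, adjusted p = 1.37e-06). LOXL2, which acts on type IV, went the other way, by 2.38 times (log2 -1.25, SE 0.12, adjusted p = 5.43e-05), and LOXL4 was lower by 1.00 (adjusted p = 1.49e-04) and dim on 2 of the 3 IGFBP6 arrays.

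Of 9 genes of collagen breakdown, MMP1 rose after both knockdowns and MMP14 fell after that of IGFBP6. The list median was 0.00 against LUC in both. At an unadjusted p under 0.05 by limma, 4 of the 9 differed from LUC in IGFBP6 and 3 in ELOVL5. In IGFBP6, MMP13 was higher by 0.98 (adjusted p = 0.0516) and CTSK lower by 0.38 (adjusted p = 0.0381), neither called. MMP13 was dim on all LUC arrays and CTSK on all 9 arrays. MMP1, the interstitial collagenase that cuts the triple helix of fibrillar collagens, gave 9.92, 9.59 and 10.01 in LUC, 16.50, 16.53 and 16.45 in ELOVL5, and 18.37, 18.13 and 18.03 in IGFBP6. The 3 cultures were far apart, by 6.65 (SE 0.13, adjusted p = 4.40e-09) for ELOVL5 and 8.34 (SE 0.13, adjusted p = 3.70e-10) for IGFBP6 on the log2 scale, with 1.68 between the knockdowns. The deposited values reach 19.29 and the options of their normalization are not given in the sources used here, so the size of the MMP1 change depends on that unstated scale. MMP14, a membrane-bound collagenase, gave 11.22, 11.84 and 11.68 in LUC, 12.37, 12.42 and 12.22 in ELOVL5, and 10.61, 11.19 and 10.75 in IGFBP6. It was lower by 0.73 in IGFBP6 (adjusted p = 0.0177). That call was lost without IGFBP6 array 1 or 3 or LUC array 2 or 3 (adjusted p 0.0588 to 0.0721) and with its own spread (0.0832). In ELOVL5 it was higher by 0.76 and did not pass (adjusted p = 0.0933). It passed with the replicate block (0.0444) and with array weights (0.0289). Between the knockdowns it differed by -1.49 (adjusted p = 3.36e-04).

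Of 11 collagen receptors, ADGRG1 fell after the knockdown of IGFBP6 (list median -0.04), and ITGA2 rose and ADGRG6 fell after that of ELOVL5 (list median 0.00). ADGRG1, an adhesion receptor that binds type III, gave 8.96, 8.58 and 8.33 in LUC, 9.33, 9.33 and 9.30 in ELOVL5, and 7.31, 6.57 and 6.94 in IGFBP6. It was 3.21 times lower in IGFBP6 (log2 -1.68, SE 0.19, adjusted p = 1.50e-04). In ELOVL5 it was higher by 0.70 without passing (adjusted p = 0.152). ITGA2, the collagen-binding subunit of integrin alpha2 beta1, gave 12.73, 13.22 and 12.35 in LUC, 13.66, 14.04 and 13.90 in ELOVL5, and 13.03, 13.09 and 12.72 in IGFBP6. The ELOVL5 arrays were above the others, by 1.10 over LUC (SE 0.20, adjusted p = 0.0323). ADGRG6, a receptor for type IV, was lower by 0.68 in ELOVL5 (adjusted p = 0.0259) and higher by 0.99 in IGFBP6 than in ELOVL5 (adjusted p = 3.12e-04). Neither ELOVL5 call was stable. ITGA2 lost its call without any 1 ELOVL5 array, LUC array 1 or LUC array 3 (adjusted p 0.0613 to 0.141), and ADGRG6 without any 1 ELOVL5 array, LUC array 2 or LUC array 3 (adjusted p 0.0595 to 0.117).

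Of 14 matrix proteins that bind collagen, FN1 and THBS2 fell after the knockdown of IGFBP6 (median -0.06), and none was called by limma after that of ELOVL5 (1 at an unadjusted p under 0.05, median -0.13). FN1, fibronectin, gave 13.48, 13.86 and 13.37 in LUC, 13.54, 13.52 and 13.25 in ELOVL5, and 11.41, 12.04 and 11.58 in IGFBP6. It was 3.71 times lower in IGFBP6 (log2 -1.89, SE 0.18, adjusted p = 4.00e-05). FN1 was the only one of the 14 with a group mean at or above 6. THBS2, an antiangiogenic matrix protein that was dim on all arrays, was lower by 0.62 (adjusted p = 9.84e-04), or by 0.56 and under 1.5 times without IGFBP6 array 2. The genes DCN, LUM, POSTN and DPT in this list also serve as fibroblast markers above.

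**Figure D4:**
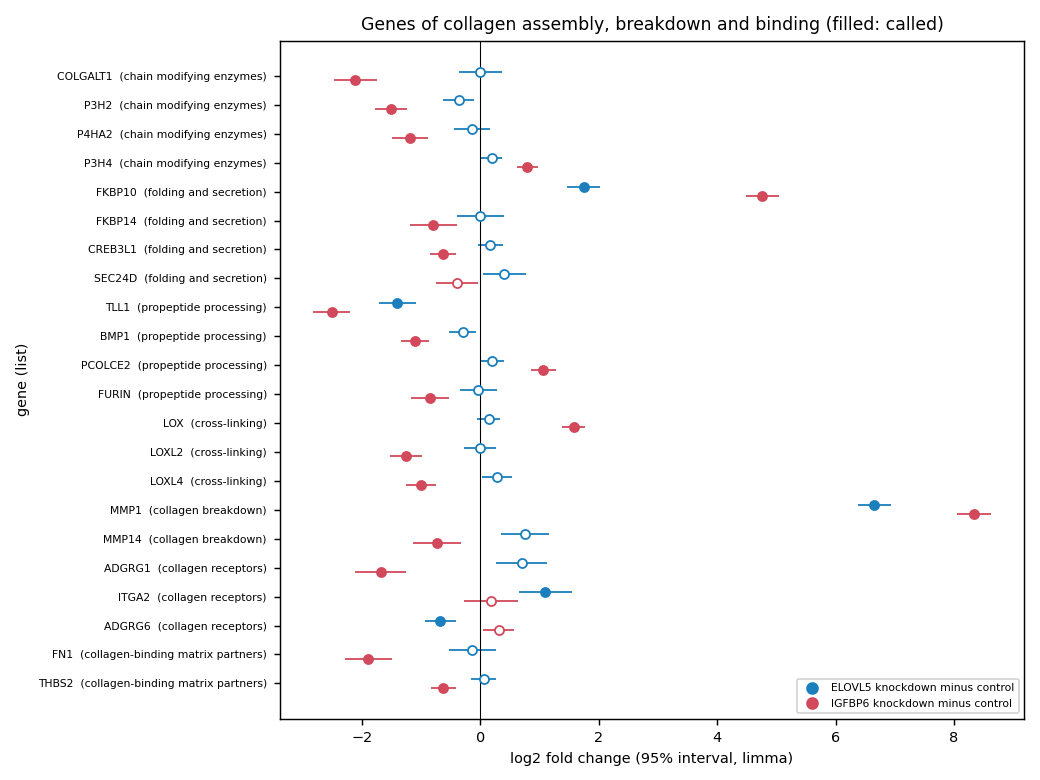
Difference from LUC (x axis, log2 fold change with the 95% interval of limma) of 22 genes of collagen assembly, breakdown and binding (y axis, with their list), for ELOVL5 in blue and IGFBP6 in red, filled where called. MMP1 and FKBP10 are to the right of zero and TLL1 to the left in both cultures, while COLGALT1 and FN1 lie to the left in IGFBP6 (-2.11 and -1.89) and at zero or near it in ELOVL5 (0.00 and -0.13).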

How the data were processed

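Total RNA of 9 samples (3 each of LUC, ELOVL5 and IGFBP6) was hybridised to the Human Transcriptome Array 2.0. The authors deposited log2 intensities for 67528 transcript clusters, made with the RMA algorithm in Transcriptome Analysis Console 4.0.0.25 per the submitters' processing notes, and no further transformation was applied. The background and summary options of RMA are not given in the sources used here, and slide or scan batches are not known. Symbols came from the platform annotation (23781 clusters with 1 symbol, 1543 with several, 42204 with none). Arrays hold no counts. Their number and, for dim clusters, signal near background limit the precision.

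A linear model on the 9 arrays was fitted with limma 3.58.1 in R 4.3.3 (lmFit, eBayes), with culture as the only term and 6 residual degrees of freedom (4.04 prior). The 3 contrasts between cultures were tested over all clusters with Benjamini-Hochberg adjustment. Both limits of a call (adjusted p of 0.05 and a change of 1.5 times) follow the study. An exact permutation test of 3 against 3 arrays cannot give a two-sided p below 0.1, so none was used. The fitting code was tested on simulated data.

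The members and lists were chosen with earlier results of these data known. Named were chains called in any contrast and their neighbour or promoter partners, the chains of types I, III, IV, V and VI, the 5 chains of highest mean in LUC, and up to the 4 most changed called genes of each list. PLOD1, CRTAP, ADAMTS3, MMP13 and CTSK were added after their values were seen. COL11A2 and COL27A1 have several clusters. Figures were drawn with matplotlib 3.10.9. In all, 18 alternative settings were run.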

Additional observations from a re-analysis of the deposited data

Results flagged for a closer look

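A second transcript cluster of COL27A1, which the rule of 1 cluster per gene leaves out, gave 4.74, 4.84 and 4.70 in LUC, 5.16, 4.66 and 4.66 in ELOVL5, and 5.40, 5.60 and 5.45 in IGFBP6. It was higher in all 3 IGFBP6 arrays than in any control array, by 0.72 on the log2 scale (SE 0.14, adjusted p = 0.00377 by limma), while the cluster used in the report differed by 0.27. It drew attention as a signal above the control level in a cluster outside the main comparison. Both clusters lay under log2 6 on every array, and a cause was not tested.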

How the results depend on the processing

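Among 987 values of 19 named chains under the 18 alternatives, 7 lost a call and 3 gained one, and among 1185 values of 22 genes of the lists 30 lost a call and 3 gained one. The sign turned in 58 values of the chains and 15 of the list genes. None of these was called in either fit, and their size was at most 0.18 on the log2 scale. With dim clusters left out, the number of chains called lower was 0 for IGFBP6 against LUC and 0 for IGFBP6 against ELOVL5, because COL5A1 was filtered out. For ELOVL5 against LUC it was 0 with each gene's own spread and 0 with median centring, and 0 to 1 when 1 array was left out (COL12A1). For IGFBP6 against ELOVL5, 1 to 2 chains were called higher when 1 array was left out, with COL13A1 added. Leaving out 1 array moved COL6A6 in IGFBP6 against LUC between -0.062 and 0.12, and ITGA2 between -0.028 and 0.41, negative without LUC array 3. The cause of the other changes was not tested.

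ITGA2 in ELOVL5 against LUC also lost its call with only the 2 groups compared (adjusted p = 0.0603), its own spread (0.193), quantile normalization (0.0599) and median centring (0.0522), and ADGRG6 with its own spread (0.128) and median centring (0.0719). ADGRG1 in ELOVL5 was called with array weights (0.0316). These weights, lower for arrays more variable than the rest, were 0.34, 0.45 and 2.28 for the IGFBP6 arrays in order. For LUC they were 0.95, 0.99 and 0.78, and for ELOVL5 0.92, 1.61 and 2.70. The replicate block left the counts of called chains at 1 higher and 1 lower for IGFBP6, 0 and 1 for ELOVL5, and 1 and 1 between the knockdowns. Deviations of equally numbered arrays correlated at 0.33, 0.02 and 0.13 (IGFBP6 and LUC) and 0.01, 0.18 and -0.06 (ELOVL5 and LUC), so the numbers were not taken to pair samples, and not every array correlated best with its own number. Another background correction could not be run on normalized values, and signal near background limits what can be said of the 35 dim chains.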
